A study of Mus musculus with 6 samples.

Results

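Fully grown mouse oocytes without and with the Yap1 gene were compared by RNA sequencing at the germinal vesicle (GV) stage, when the oocyte is still arrested before its meiotic divisions. The comparison used the 4 libraries titled GV out of 6 in the series, 2 labelled YAP-null (YAPko in the titles, genotype YAP-/-, Yap1-deleted) and 2 labelled wild type. The other 2 libraries, from 4-cell embryos, were not used. All females had an ICR strain background and were 21 to 23 days old, and both genotypes received the gonadotrophins PMSG/hCG. Each library was made from 60 pooled oocytes. The labels do not say in which cells of the female Yap1 was deleted, nor whether the libraries of a genotype came from different animals, so p-values measure only the spread between these samples, which may be technical. The title of the series puts the question whether YAP made by the oocyte starts transcription in the early embryo, and the GV comparison asks what already differs in the oocyte before fertilisation.

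YAP is a transcriptional coactivator that does not bind DNA itself and reaches its target genes through TEAD family proteins. In the Hippo pathway, the kinases MST1 and MST2 activate LATS1 and LATS2, which phosphorylate YAP and its relative TAZ and keep them out of the nucleus. The fully grown GV oocyte is close to silent in transcription and holds a large store of messenger RNA made during growth, so its RNA profile is mostly a record of what was stored.

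The deposited values are FPKM, fragments scaled by the length of the transcript and the size of the library. They were compared as log2(FPKM + 1), so that 1 unit is about 2-fold for well expressed genes and understates the change of genes near 1 FPKM. Of 23309 gene symbols, 10463 averaged 1 FPKM or more across the 4 libraries and were tested. The titles number the libraries of each genotype 1 and 2, and differences are given as YAP-null minus wild type over all 4 libraries and within each number.

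The libraries had the transcripts of oocytes. Between 9985 and 10582 genes reached 1 FPKM in a library. Read totals are unknown, but the widths of the deposited bounds put the relative depth at 0.314 in YAP-null library 1, 0.401 in YAP-null library 2 and 0.375 in wild-type library 2, with wild-type library 1 set to 1. All 15 oocyte markers were tested, with summed FPKM of 9576 and 12532 in the YAP-null and 10183 and 13148 in the wild-type libraries. The 20 markers of granulosa and cumulus cells, which surround the oocyte, summed to 45.9 to 57.0 FPKM, and 2 of them were listed at 0 in all 4 libraries. The 6 stroma markers summed to at most 0.529 FPKM. Among 8 blood and immune markers, Pecam1 gave most of the sums of 13.9 to 26.0 FPKM, while Ptprc and Lyz2 were listed at 0 in all 4 libraries. All 4 Y-linked genes were listed at 0. In such bulk samples fewer cells of a type and less RNA per cell cannot be told apart.

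YAP-null library 1 stood apart by a single small RNA gene. Mir762, a microRNA gene whose annotated locus is 76 bases long (chromosome 7, 134852001 to 134852076 in mm9), was at 88240 FPKM there, which is 19.1% of that library's sum, and was listed at 0 in the other 3 libraries. Its deposited bounds in YAP-null library 1 were 0 to 176480 FPKM. They include 0, so the value is poorly determined. The mature microRNA is shown because of this value, with its seed (bases 2 to 8) in capitals. It comes from RefSeq on GRCm38.p6 (chr7:127708534-127708555, plus strand), and 81.8% of its bases are G or C.
mmu-miR-762: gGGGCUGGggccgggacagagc
Mir680-2, a microRNA gene at 665.7 FPKM in YAP-null library 2, and the small nucleolar RNA gene Snord22, at 43.9 FPKM in wild-type library 1, were likewise listed at 0 in the other libraries. They and Mir762 are the 3 tested genes with a locus under 200 bases, and each was above 0 in a single library. Without Mir762 the sum of FPKM was 374090 in YAP-null library 1, beside 362907 in YAP-null library 2 and 366405 and 370796 in the wild-type libraries.

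Yap1 transcript was low in both libraries labelled YAP-null. Yap1 (chromosome 9, 7932001 to 8004596 in mm9) was at 10.8 and 10.04 FPKM in YAP-null libraries 1 and 2 and at 248 and 154 FPKM in wild-type libraries 1 and 2. The deposited bounds (their confidence level is not stated here) were 8.90 to 12.7 and 8.36 to 11.7 FPKM in the YAP-null and 242 to 257 and 145 to 162 FPKM in the wild-type libraries. The genotypes did not overlap, and 4.35% of the wild-type level remained in number 1 and 6.54% in number 2. The log2 difference was -4.10 ± 0.387 (SE), with a 95% interval of -5.11 to -3.09. In limma, Yap1 had the smallest unadjusted p of all genes, 0.00017, and an adjusted p of 1.00, so it did not pass. With any single library left out it passed, in fits where the lone library of a genotype is assumed to vary like the other genotype's. The limma adjusted p was then 0.0199 and 0.0136 without YAP-null library 1 or 2, and 0.00961 and 2.28e-05 without wild-type library 1 or 2. With 2 libraries per genotype the smallest p that an exact permutation test allows is 0.333.

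The 13 tested genes within 5 Mb of Yap1 showed nothing like its difference. Their log2 differences ran from -0.36 (Mmp12, a matrix metalloproteinase) to 0.56 (Birc2), with a median of 0.13, and 0 of them was 2-fold apart on the same side in both numbers. Birc3, an inhibitor of apoptosis gene next to Birc2, was at 203 and 179 FPKM in the YAP-null against 188 and 173 FPKM in the wild-type oocytes, with a log2 difference of 0.08. Birc2, its neighbour of the same family, was at 6.60 and 5.09 FPKM in the YAP-null against 3.08 and 4.24 FPKM in the wild-type oocytes. The genotypes did not overlap for Birc2 or Mmp12. This held for 10.8% of all tested genes, 5.1% with YAP-null higher and 5.68% with YAP-null lower.

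The Yap1 promoter itself holds the letters of the core site bound by TEAD proteins, and is shown for that reason. It runs from 250 bases before to 50 bases after the start of transcription (RefSeq, GRCm38.p6, chr9:8004547-8004846, minus strand), with GGAATG, which begins 141 bases before the start, in capitals.
Yap1 promoter: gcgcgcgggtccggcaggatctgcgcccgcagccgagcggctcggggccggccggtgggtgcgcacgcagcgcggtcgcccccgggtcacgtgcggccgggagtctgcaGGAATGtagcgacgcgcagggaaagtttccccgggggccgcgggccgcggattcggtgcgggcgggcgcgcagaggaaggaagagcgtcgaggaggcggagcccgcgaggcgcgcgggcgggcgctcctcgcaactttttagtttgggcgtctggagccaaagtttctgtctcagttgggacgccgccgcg
The letters GGAATG or, for the other strand, CATTCC were found in 14.04% of the 8452 tested genes with a RefSeq promoter of this length, and in 16.6% of all 27025 genes with one. Of the 20 genes described below as 2-fold apart in both numbers, 13 had such a promoter, and Yap1 was the only 1 of them with the letters. A match is a description of the letters and not of binding.

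Beyond Yap1, most stored transcripts of YAP-null oocytes lay close to their wild-type level within each number. Of the 10463 tested genes, 0 (0%) passed an adjusted p of 0.05 in limma, and 22 (0.21%) had an unadjusted p under 0.05, of which 5 (0.0478%) were higher and 17 (0.162%) lower in YAP-null oocytes. The counts that passed in limma were 2 and 3 without YAP-null library 1 or 2, and 6 and 5 without wild-type library 1 or 2. Yap1 was in each of these sets. The others were the 3 small RNA genes listed at 0 in all but a single library, A930015D03Rik, Cdc5l, Gm5506 and BC002163, and none of these 7 passed in all 4 fits. The median log2 difference over all genes was 0.00 (0.01 in number 1 and -0.02 in number 2). A difference of less than 1.5-fold was seen in 91.9% of genes in number 1, in 93.0% in number 2 and in 86.5% (9055 genes) in both. Among the 775 genes that averaged 100 FPKM or more, 754 (97.3%) were within 1.5-fold in both numbers and 1, Yap1, was 2-fold apart in both.

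The 95% interval of a difference was wide, since the libraries of a genotype differed from each other. Between the libraries of a genotype, 26.7% of tested genes were at least 2-fold apart in YAP-null and 23.3% in wild-type oocytes. Between genotypes the share was 1.65% in number 1 and 1.51% in number 2. The median half-width of the interval was 1.13 on the log2 scale, and 1180 genes (11.3%) had an interval lying wholly within a 2-fold difference in either direction. For the remaining genes the interval reached beyond a 2-fold difference in at least 1 direction.

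**Figure D1:**
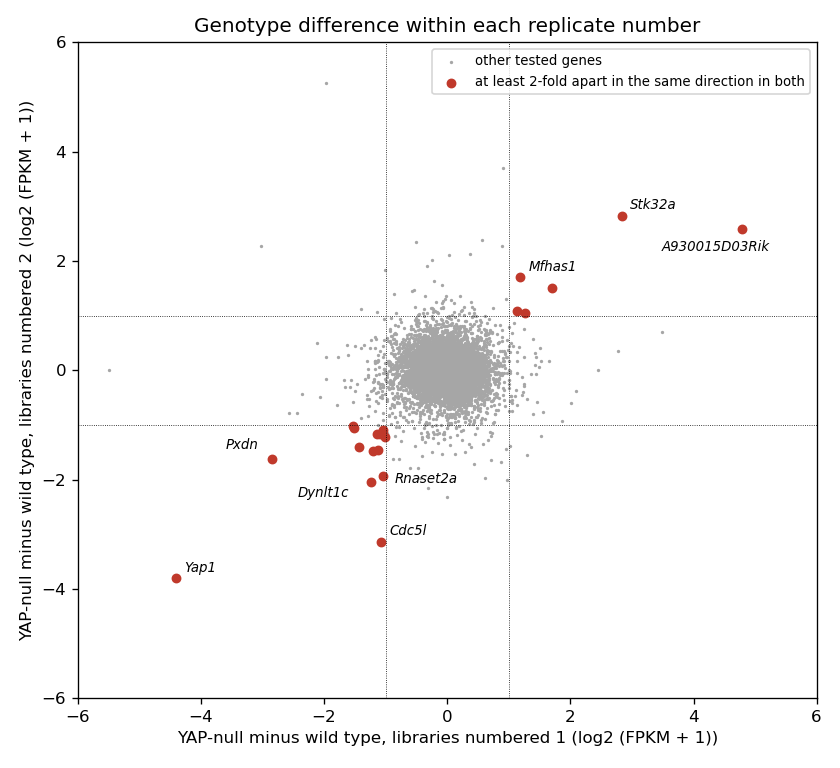
Each point is a tested gene, placed by its YAP-null minus wild-type difference in log2(FPKM + 1) within the libraries numbered 1 (horizontal axis) and 2 (vertical axis); dotted lines mark a 2-fold difference. Red points are the 20 genes 2-fold or more apart, on the same side, in both numbers, with Yap1 at -4.40 and -3.81; Mir762 and Mir680-2 lie outside the axes.

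The plot of differences within each number shows a dense core around 0 with few genes in its outer corners. A 2-fold difference, taken as 1 or more on the log2(FPKM + 1) scale, was found within number 1 for 173 genes (1.65%), 60 higher (0.573%) and 113 lower (1.08%) in YAP-null oocytes. Within number 2 it was found for 158 genes (1.51%), 66 higher (0.631%) and 92 lower (0.879%). In both numbers and the same direction there were 20 genes (0.191% of those tested), 6 higher (0.0573%) and 14 lower (0.134%). By sign alone, 5028 genes (48.1%) lay on the same side of 0 in both numbers, 2456 higher (23.5%) and 2572 lower (24.6%). Genes of low level made up most of these. At a mean of 1 to 3 FPKM, 4.05% of 2097 genes were 2-fold apart in number 1 and 4.77% in number 2, and 10 of the 20 genes fell in this range. At 30 to 100 FPKM the shares were 0.345% and 0.148% of 2031 genes. Of the 20 genes, 15 were under 10 FPKM in every library, and 6 were listed at 0 in YAP-null library 1, the shallowest. For 10 of the 19 genes with usable bounds, the deposited bounds of the genotypes were apart in both numbers. These were Yap1, Stk32a, A930015D03Rik, Mfhas1, Cdc5l, Rnaset2a, Rrs1, Pxdn, Hsd3b1 and Olfr1349, where a value listed at 0 has bounds of 0. The share of all tested genes with bounds apart in both numbers is not given here, so the count only describes these genes. Bounds can lie apart at small differences, as in H1foo, at -0.13 over all libraries. In genes such as H1foo and Zbed3 the bounds do not hold the value itself in every library. The genes nearest the threshold on the inside were 2900057B20Rik, Hsd3b1 and Immp2l, whose smaller difference in size was 1.01, 1.03 and 1.04 on the log2 scale. The nearest on the outside were 0610040B10Rik, 1700037H04Rik and Prl8a2, at 0.996, 0.982 and 0.979.

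Among the 6 genes higher in YAP-null oocytes, Stk32a and A930015D03Rik had the largest differences. Stk32a, which encodes a serine/threonine kinase, was at 6.55 and 8.78 FPKM in the YAP-null against 0.0572 and 0.381 FPKM in the wild-type libraries. Both YAP-null libraries were high and both wild-type libraries close to 0, and the log2 difference of 2.83 ± 0.379 (SE) was 2.84 and 2.82 within the numbers. The unadjusted p in limma was 0.000831 and the adjusted p was 1.00. A930015D03Rik (chromosome 17, 36131449 to 36175119 in mm9), an unnamed transcript over the major histocompatibility genes H2-T23 and H2-T24, was at 53.4 and 15.3 FPKM in the YAP-null against 0.974 and 1.73 FPKM in the wild-type libraries. Its differences were 4.79 and 2.58 within the numbers, and YAP-null library 1 was well above YAP-null library 2. H2-T23 was at most 1.43 FPKM in any library and H2-T24 was listed at 0 in all 4, while 39.5% of the 31-base words of A930015D03Rik also occur in BC023719.

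The other 4 higher genes were at lower levels or uneven between numbers. Mfhas1, a leucine-rich repeat protein gene, was at 3.15 and 8.24 FPKM in the YAP-null against 0.824 and 1.85 FPKM in the wild-type oocytes, differences of 1.19 and 1.70 within the numbers. Akr1c21, a hydroxysteroid dehydrogenase gene, was at 3.13 and 6.13 against 0.887 and 2.36 FPKM. Defb41, a beta-defensin gene, was at 15.97 and 6.66 against 6.10 and 2.70 FPKM. In all 3 the genotypes did not overlap, although in Akr1c21 and Defb41 the lower YAP-null library came close to the higher wild-type library. The sixth gene, 1100001G20Rik, was at 5.92 and 1.85 FPKM in the YAP-null against 1.13 and 0 FPKM in the wild-type oocytes.

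Pxdn, which encodes peroxidasin, an enzyme that crosslinks collagen IV in basement membranes, had the lowest difference of the other 13 genes lower in both numbers. It was at 0 and 0.159 FPKM in the YAP-null against 6.17 and 2.55 FPKM in the wild-type libraries, on chromosome 12 (30622901 to 30702523 in mm9). Both YAP-null libraries were close to 0, the differences were -2.84 and -1.62 within the numbers, and the unadjusted p in limma was 0.00567 (adjusted p 1.00). Cdc5l, a core splicing factor gene, was at 0.232 and 1.00 FPKM in the YAP-null against 1.60 and 16.7 FPKM in the wild-type libraries. Wild-type library 2 stood far above the other 3 libraries in Cdc5l, and between 35.5% and 39.1% of the gene's 31-base words occur in each of 10 predicted copies. Rrs1, a ribosome assembly gene, was at 0.174 and 0.818 against 2.35 and 2.77 FPKM, with differences of -1.51 and -1.05 within the numbers.

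Hsd3b1, which encodes a steroid-synthesising dehydrogenase and is also a granulosa cell marker, was at 0 and 0.608 FPKM in the YAP-null against 1.89 and 2.28 FPKM in the wild-type oocytes. Gsto2, a glutathione transferase gene, was at 0 and 0.225 against 1.69 and 2.26 FPKM. Tmem216, a gene of the ciliary transition zone, was at 2.80 and 1.92 against 7.08 and 5.60 FPKM. The genotypes did not overlap in any of these 3. Immp2l, a mitochondrial inner membrane peptidase gene, was at 0 and 1.04 FPKM in the YAP-null against 1.05 and 3.36 FPKM in the wild-type oocytes, and Olfr1349, an olfactory receptor gene, at 0.413 and 0 against 2.09 and 1.74 FPKM. Reg1 was at 0 and 1.27 against 1.19 and 4.08 FPKM and was the only gene of the 20 whose genotypes overlapped. Since the 20 were picked for their differences in the same values, the lack of overlap in the others is no further result. The unnamed transcripts 2900057B20Rik and 4921531P14Rik were at 1.53 and 1.503 against 4.11 and 4.83 FPKM and at 1.82 and 2.13 against 5.48 and 7.67 FPKM.

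**Figure D2:**
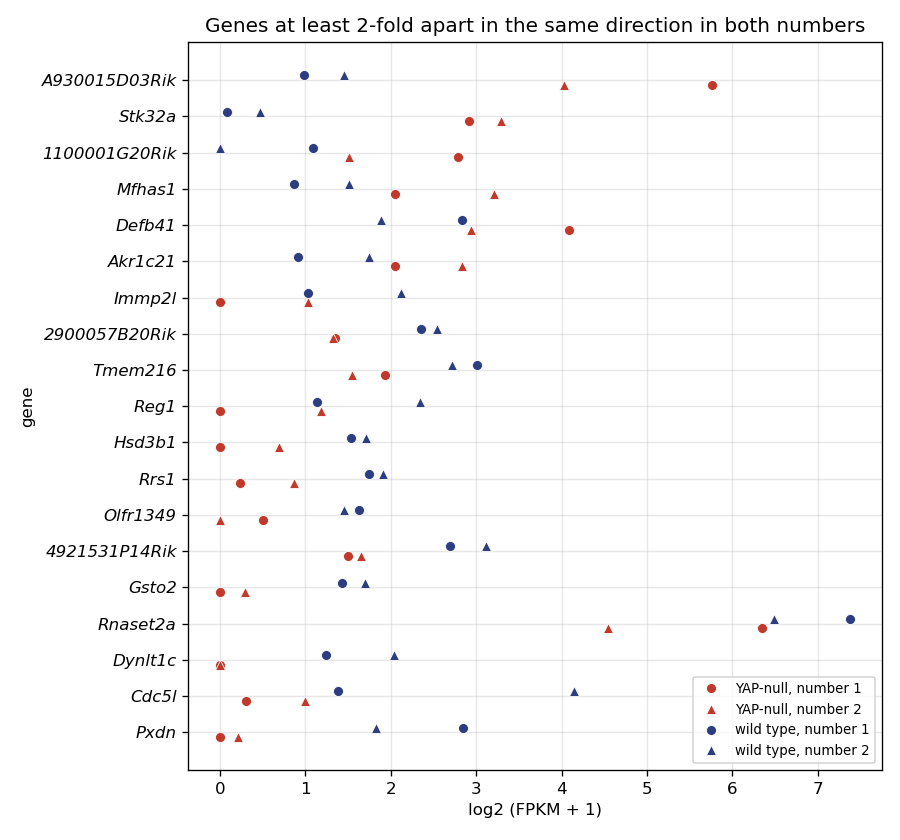
Level of the 19 genes other than Yap1 that were 2-fold or more apart, on the same side, within both numbers, as log2(FPKM + 1) in each of the 4 libraries (red, YAP-null; blue, wild type; circles, number 1; triangles, number 2). The genes higher in YAP-null are at the top; only in Reg1 do the genotypes overlap, and Rnaset2a is the only gene above 20 FPKM in all 4 libraries.

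The per-library plot of these genes shows how few of them exceed low levels. Of the well expressed members only Rnaset2a, which encodes a lysosomal ribonuclease, was above 20 FPKM in all 4 libraries. It was at 80.4 and 22.3 FPKM in the YAP-null against 166 and 88.8 FPKM in the wild-type oocytes (chromosome 17, 8321463 to 8340653 in mm9), differences of -1.04 and -1.94 within the numbers. Rnaset2a has a near-identical copy, Rnaset2b, which shares 84.8% of its 31-base words. The longest reading frames, from start to stop codon, of their best-matching GENCODE M21 transcripts are both 780 bases long. There are 0 substitutions between these frames. The first 60 bases are shown because reads from them could come from either gene.
Rnaset2a: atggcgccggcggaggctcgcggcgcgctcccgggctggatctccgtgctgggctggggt
Rnaset2b: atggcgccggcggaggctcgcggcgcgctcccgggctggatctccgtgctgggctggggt
Rnaset2b was at 225 and 93.3 FPKM in the YAP-null against 147 and 55.6 FPKM in the wild-type oocytes, higher in YAP-null by 0.61 and 0.74 within the numbers. The sum of both copies was 305 and 116 FPKM against 313 and 144 FPKM, a log2 difference of -0.18 (-0.04 and -0.32 within the numbers). The difference of Rnaset2a alone is therefore uncertain, and most of it is not seen in the sum.

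Other genes share sequence with a copy, and their differences alone are uncertain too. Dynlt1c, a dynein light chain gene, was listed at 0 in both YAP-null libraries and at 1.37 and 3.11 FPKM in wild-type libraries. Dynlt1a, which shares sequence with it, was at 20.8 and 15.9 against 12.3 and 12.3 FPKM. Eno1, the glycolytic enzyme enolase, was at 21.2 and 10.2 FPKM in the YAP-null against 29.8 and 37.4 FPKM in the wild-type oocytes, with a log2 difference of -1.13. With its copy Gm5506 added, the level was 33.2 and 27.3 FPKM against 35.7 and 37.8 FPKM, a difference of -0.28. The ribosomal protein gene Rpl26 differed by 1.47 alone and by 0.09 when Gm15772 was added. Ndufs5, a subunit of respiratory complex I, differed by -0.31 and -2.16 within the numbers alone and by -0.77 and -0.22 with BC002163, so that adding the copy gave a larger difference in number 1 and a smaller one in number 2.

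The 15 genes with the smallest unadjusted p in limma included 12 of the 20. The other 3 were lower in YAP-null oocytes. Lemd1, a LEM domain protein gene, was at 1.20 and 0.625 against 3.02 and 4.02 FPKM, and 1700037H04Rik at 0.911 and 0.952 against 2.77 and 3.31 FPKM. Pla2g4e, a cytosolic phospholipase gene, was at 0.987 and 3.22 FPKM in the YAP-null against 9.81 and 6.24 FPKM in the wild-type oocytes, differences of -2.44 and -0.78 within the numbers. The genotypes did not overlap in these 3 genes, which is no further result, since they were picked for a small p in the same values.

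The partners of YAP were mostly at low level in GV oocytes of both genotypes. Of 10 genes for YAP, TAZ, TEAD and VGLL proteins, 6 were tested, 3 above and 3 below 0, and 0 passed. Their median difference was -0.13 (-0.29 and -0.10 within the numbers), against 0.00 (0.01 and -0.02) over all tested genes. Wwtr1, which encodes TAZ, was at 2.50 and 1.57 FPKM in the YAP-null against 1.21 and 1.68 FPKM in the wild-type oocytes. Its genotypes overlapped, and its log2 difference of 0.30 was 0.66 in number 1 and -0.06 in number 2. Tead2 was at 2.85 and 1.71 against 3.80 and 2.25 FPKM, and Tead3 at 3.15 and 5.45 against 2.44 and 6.13 FPKM, both overlapping. Tead1 reached at most 1.13 FPKM and Tead4 at most 0.197 FPKM in any library, and neither was tested. Vgll4, a TEAD-binding antagonist of YAP, was at 11.0 and 11.1 FPKM in the YAP-null against 13.4 and 8.75 FPKM in the wild-type oocytes, the highest level in the family after Yap1 on the FPKM scale.

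**Figure D3:**
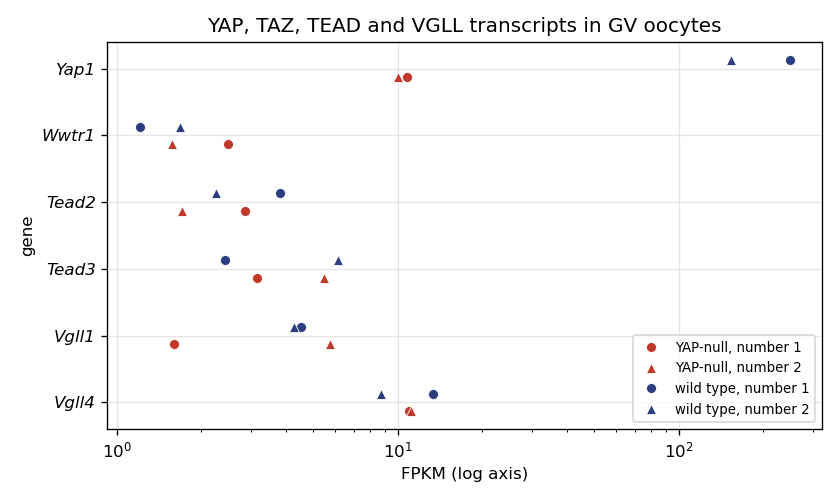
FPKM on a log axis of the 6 tested genes for YAP, TAZ, TEAD and VGLL proteins in each of the 4 libraries (red, YAP-null; blue, wild type; circles, number 1; triangles, number 2). Yap1 lies near 10 FPKM in both YAP-null libraries, against 248 and 154 FPKM in wild type, while the genotypes overlap in each of the other 5.

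In the plot of these factors, Yap1 is the only gene whose genotypes are separate. In wild-type oocytes its level of 154 to 248 FPKM stood far above that of Wwtr1, the nearest relative, at 1.21 to 1.68 FPKM. In YAP-null oocytes the remaining Yap1 signal of 10.04 to 10.8 FPKM was close to the level of Vgll4.

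The upstream Hippo genes showed no common shift. Of 27 kinases, scaffolds and regulators, 19 were tested, 7 above and 12 below 0, with 0 passing. Of the 19, 0 were separated between genotypes and 18 were within 1.5-fold in both numbers. Over all tested genes these shares were 10.8% and 86.5%, with 5152 genes above and 5311 below 0. The same counts for the lists below are to be read beside them. Separation also depends on how far apart the libraries of a genotype lie. A count of 0 separated genes is therefore no measure of likeness between the genotypes. The median of the Hippo genes was -0.03 (-0.14 and -0.04 within the numbers). Stk3, which encodes MST2, was at 9.18 and 13.5 FPKM in the YAP-null against 10.5 and 20.4 FPKM in the wild-type oocytes, and Stk4, which encodes MST1, at 2.74 and 3.68 against 3.28 and 2.51 FPKM. Sav1, the scaffold of these kinases, was at 17.3 and 15.2 against 14.1 and 17.9 FPKM. In each of these 3 the genotypes overlapped. The kinase genes Lats1 and Lats2 stayed below 1 FPKM in all 4 libraries. Nf2, the upstream regulator merlin, was at 16.5 and 32.2 against 16.5 and 33.2 FPKM, with differences of 0.00 and -0.04 within the numbers. Wwc2, a relative of the scaffold KIBRA, was at 35.8 and 99.3 against 34.7 and 99.2 FPKM.

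Genes that YAP and TEAD drive in somatic cells were largely silent in the oocyte. Of 32 such targets, 8 were tested, 4 above and 4 below 0, 0 passed, and 7 were listed at 0 in all 4 libraries. Ctgf and Cyr61, the most used reporters of YAP activity, were listed at 0 in both YAP-null libraries, and reached at most 0.782 and 0.166 FPKM in wild type. Ankrd1 and Areg were among the genes listed at 0 throughout. The target with the highest level, the survivin gene Birc5, was at 222 and 432 FPKM in the YAP-null against 255 and 462 FPKM in the wild-type oocytes, with a log2 difference of -0.15 (95% interval -1.54 to 1.25). Tgfb2, a growth factor gene, was at 50.6 and 61.0 against 49.1 and 53.7 FPKM. Edn1, which encodes the peptide endothelin-1, was the only separated target and was higher in YAP-null, at 6.01 and 4.01 FPKM against 2.31 and 1.76 FPKM, with differences of 1.08 and 0.86 within the numbers (unadjusted p 0.0568 and adjusted p 1.00 in limma). The median of the 8 targets was 0.01 (0.09 and -0.05 within the numbers). Separation between genotypes, seen here for Edn1 alone, held for 10.8% of all tested genes.

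Granulosa and cumulus cell markers were low, and more of those tested were below 0 than above. Of 20, 9 were tested, 3 above and 6 below 0, 0 passed, and the median was -0.25 (-0.31 and -0.18 within the numbers). It was -0.08 without the filter on low values and -0.14 for genes averaging 5 FPKM or more. Separation between genotypes was seen for 6 of the 9, beside 10.8% of all genes. Inha, an inhibin subunit, was at 11.6 and 6.12 FPKM in the YAP-null against 14.6 and 15.6 FPKM in the wild-type oocytes. Gja1, the connexin of granulosa cells, was at 2.67 and 2.01 against 3.67 and 3.83 FPKM, and Amh, which encodes anti-Müllerian hormone, at 3.05 and 3.93 against 4.46 and 4.21 FPKM. These 3, with Hsd3b1, were lower in both YAP-null libraries. Cyp19a1, the aromatase gene, was at 13.6 and 12.3 against 9.51 and 10.8 FPKM, and Kitl at 1.05 and 3.11 against 0.954 and 1.04 FPKM, both higher in YAP-null. The marker genes of the surrounding cells summed to 45.9 and 48.8 FPKM in YAP-null and to 51.8 and 57.0 FPKM in wild-type libraries, and their part in the differences of other genes was not tested.

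The egg coat genes were among the most abundant and differed little within the numbers. Of 10 tested genes, 2 were above and 8 below 0, 0 passed, 9 were within 1.5-fold in both numbers, and the median was -0.09 (-0.07 and -0.08 within the numbers). The zona protein gene Zp3 was at 551 and 1849 FPKM in the YAP-null against 572 and 1830 FPKM in the wild-type oocytes, and Zp2 at 295 and 1315 against 312 and 1319 FPKM. Within a number the genotypes were nearly equal for both genes, while library 2 of each genotype was over 3 times library 1. Astl, which encodes ovastacin, the protease that cleaves ZP2 after fertilisation, was the exception, at 21.3 and 322 FPKM in the YAP-null against 70.3 and 363 FPKM in the wild-type oocytes. Its differences were -1.68 in number 1 and -0.17 in number 2, and the genotypes overlapped. Folr4, the symbol under which the sperm receptor JUNO is listed, was at 193 and 170 against 198 and 201 FPKM, and the integrin gene Itgb1 at 16.3 and 16.4 against 13.4 and 13.8 FPKM, without overlap in either.

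Oocyte growth factors and transcription factors were likewise close. Of 22 tested, 15 were above and 7 below 0, 0 passed, 21 were within 1.5-fold in both numbers, and the median was 0.05 (0.07 and 0.01 within the numbers). Gdf9, the growth factor through which the oocyte acts on its follicle, was at 1996 and 2695 FPKM in the YAP-null against 2576 and 2875 FPKM in the wild-type oocytes, with a log2 difference of -0.23 (95% interval -1.38 to 0.92). Bmp15, its partner, was at 368 and 1034 against 381 and 1031 FPKM. Nobox, a homeobox factor needed for early follicles, was at 245 and 243 against 239 and 230 FPKM. The genotypes overlapped for Gdf9 and Bmp15 and were separate for Nobox by a difference of 0.06.

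Maternal-effect genes, whose oocyte product the embryo needs, were balanced around 0. Of 44 tested, 23 were above and 21 below 0, 0 passed, 42 were within 1.5-fold in both numbers, and the median was 0.01 (0.07 and -0.04 within the numbers). All 8 genes of the subcortical maternal complex, a protein assembly under the egg membrane, were within 1.5-fold in both. Its member Ooep was at 667 and 676 FPKM in the YAP-null against 735 and 858 FPKM in the wild-type oocytes, without overlap and with differences of -0.14 and -0.34. Tle6 was at 569 and 1194 against 589 and 1237 FPKM. Trim28, a corepressor that protects imprints, was at 102 and 106 against 131 and 112 FPKM, and Zfp57, its DNA-binding partner, at 965 and 1020 against 861 and 1007 FPKM.

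Meiotic control genes gave no consistent direction. Of 33 tested regulators of arrest and resumption, 15 were above and 18 below 0, 0 passed, 31 were within 1.5-fold in both numbers, and the median was -0.02 (0.03 and -0.04 within the numbers). Ccnb1, the cyclin of the kinase that drives resumption, was at 516 and 218 FPKM in the YAP-null against 433 and 233 FPKM in the wild-type oocytes. Mos, the kinase that holds the egg at metaphase, was at 692 and 237 against 718 and 256 FPKM. Mastl, which encodes the Greatwall kinase, was at 54.7 and 40.5 against 35.2 and 39.8 FPKM, separate but with differences of 0.62 and 0.02 within the numbers. Of 30 tested spindle, cohesin and kinetochore genes, 19 were above and 11 below 0, with a median of 0.06 (0.10 and 0.00 within the numbers). Of these 30, 0 were separated, beside 10.8% of all tested genes.

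Genes for storage and decay of messenger RNA were above 0 more often than below in the values as deposited. The FPKM sums of the libraries include Mir762, which made up 19.1% of the sum in YAP-null library 1. Rescaling the libraries to equal FPKM sums gave a list median of -0.10 beside -0.13 for all genes. Of 39 tested, 28 were above and 11 below 0, 0 passed, all 39 were within 1.5-fold in both numbers, and the median was 0.04 (0.14 and -0.01 within the numbers). The difference lay in number 1, where the median of all tested genes was 0.01. Btg4, an adaptor of the deadenylase that clears maternal transcripts, was at 532 and 337 FPKM in the YAP-null against 406 and 362 FPKM in the wild-type oocytes, differences of 0.39 and -0.10. Eif4e1b, an oocyte cap-binding protein gene, was at 442 and 832 against 437 and 828 FPKM. Pabpc1l, the oocyte form of the poly(A)-binding protein, was at 136 and 137 against 152 and 146 FPKM. It was the only separated gene of the list, beside 10.8% of all tested genes. The 18 tested small RNA pathway genes had a median of 0.08 (0.11 and 0.03), with 12 above and 6 below 0 as deposited and a median of -0.07 after that rescaling, again beside -0.13 for all genes. Among them was Mov10l1, a helicase gene of the piRNA pathway, at 2.19 and 2.31 against 1.40 and 1.34 FPKM.

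Chromatin genes held the egg's most abundant linker histone. Of 39 tested DNA methylation and chromatin genes, 23 were above and 16 below 0, 0 passed, and the median was 0.03 (0.09 and 0.00 within the numbers). H1foo, the oocyte linker histone, was at 1837 and 1772 FPKM in the YAP-null against 1996 and 1952 FPKM in the wild-type oocytes, separate by a difference of -0.13. Hdac2, a histone deacetylase gene, was at 54.1 and 48.7 against 42.2 and 38.8 FPKM, higher by 0.35 and 0.32 within the numbers. Dnmt1, the maintenance DNA methyltransferase, was at 198 and 1041 against 200 and 1005 FPKM, with overlap.

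Cell death and p53 genes were more often above than below 0 in the values as deposited, and their median after the same rescaling was -0.05 beside -0.13 for all genes. Of 20 tested, 16 were above and 4 below 0, 0 passed, and the median was 0.09 (0.12 and 0.06 within the numbers). Of the 20, 4 were separated with YAP-null higher, Chek1, Atr and Apaf1 among them, and 1, Casp9, with YAP-null lower. Over all tested genes, 5.1% were separated with YAP-null higher and 5.68% with YAP-null lower. Chek1, a DNA damage checkpoint kinase, was at 118 and 110 FPKM in the YAP-null against 80.8 and 105 FPKM in the wild-type oocytes, and Atr, the kinase that activates it, at 9.86 and 8.88 against 6.14 and 8.61 FPKM. For both genes the difference was larger in number 1 (0.54 and 0.60) than in number 2 (0.07 and 0.04). Trp53, the p53 gene itself, was at 14.3 and 14.2 against 13.2 and 15.1 FPKM. The p53 target Cdkn1a stayed under 1.5 FPKM in all 4 libraries.

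Glycolysis genes were below 0 more often than above. Of 18 tested, 5 were above and 13 below 0, 0 passed, and the median was -0.11 (-0.03 and -0.14 within the numbers). Of the 18, 1 was separated with YAP-null higher and 3 with YAP-null lower, beside 5.1% and 5.68% of all tested genes. Within 1.5-fold in both numbers were 14, beside 86.5% of all tested genes. The largest difference was that of Eno1, whose sum with its copy is given above. Pgam1, phosphoglycerate mutase, was at 5.69 and 8.77 FPKM in the YAP-null against 10.4 and 10.5 FPKM in the wild-type oocytes, and Gapdh at 73.8 and 55.0 against 76.8 and 65.3 FPKM. The genotypes were separate for Pgam1 and overlapped for Gapdh.

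Genes of protein synthesis, respiration and protein breakdown had medians close to 0 over the 4 libraries. Of 78 tested cytosolic ribosomal protein genes, 32 were above and 46 below 0 (median -0.02, with 0.08 and -0.11 within the numbers). Rplp1, an acidic stalk protein, was at 248.9 and 280 FPKM in the YAP-null against 333 and 354 FPKM in the wild-type oocytes, the lower YAP-null levels lying apart from both wild-type levels. Of 79 tested oxidative phosphorylation subunits, 41 were above and 38 below 0 (median 0.01, with 0.05 and -0.07). Cyc1, a subunit of respiratory complex III, was at 18.7 and 15.2 against 13.7 and 10.7 FPKM, again without overlap. Of 35 tested proteasome subunits, 24 were above and 11 below 0 (median 0.04, with 0.14 and -0.03). Of these 35, 0 were separated, beside 10.8% of all tested genes. The proteasome genes also differed between the numbers, with summed FPKM of 4551 and 2457 in the YAP-null and 4130 and 2553 in the wild-type libraries. In each of these 3 lists 0 genes passed.

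**Figure D4:**
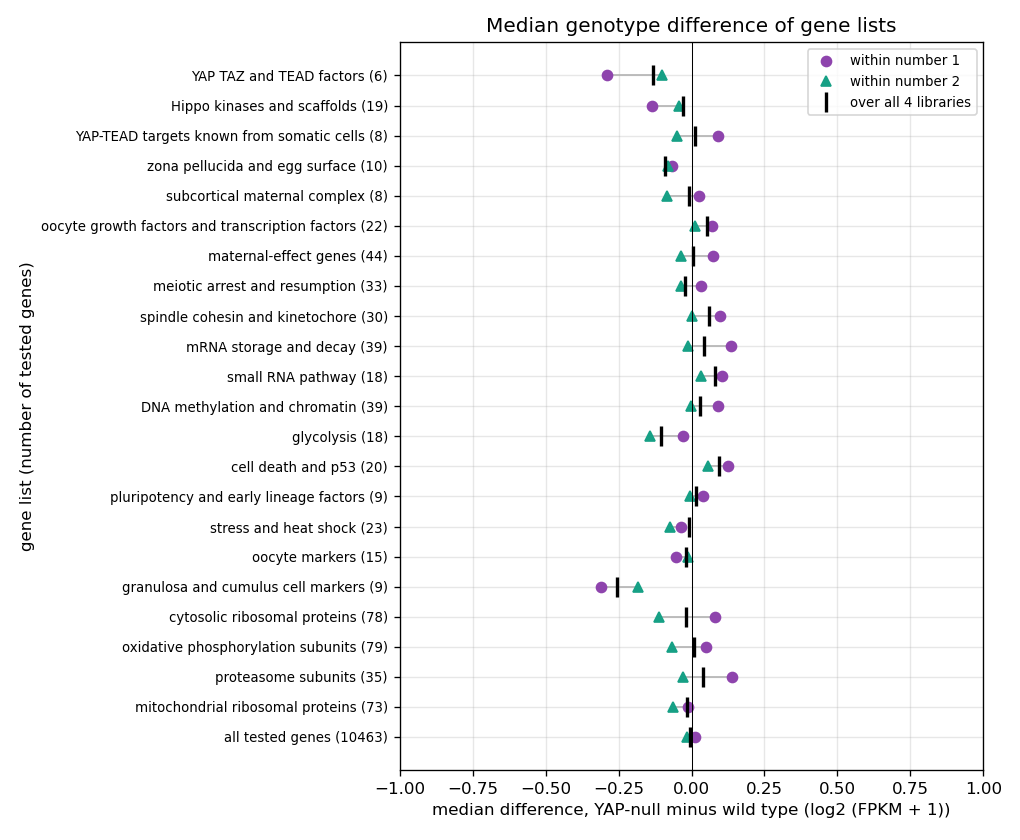
Median YAP-null minus wild-type difference in log2(FPKM + 1) of each gene list with at least 6 tested genes (black bars, all 4 libraries; circles, number 1; triangles, number 2; number of tested genes in parentheses). Medians lie between -0.25 (granulosa and cumulus cell markers) and 0.09 (cell death and p53), with all tested genes at 0.00.

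The plot of list medians shows narrow medians over the 4 libraries, and in several lists, such as the ribosomal proteins and the proteasome subunits, medians on opposite sides of 0 in the numbers 1 and 2. Leaving out a single library moved many of these medians across 0, so that the ribosomal proteins ran from -0.48 (without YAP-null library 1) to 0.43 (without YAP-null library 2), the Hippo kinases and scaffolds from -0.51 (without wild-type library 1) to 0.29 (without YAP-null library 1) and glycolysis from -0.26 (without YAP-null library 1) to 0.04 (without YAP-null library 2). The cell death and p53 list ran from 0.07 to 0.14 and the granulosa and cumulus markers from -0.37 to -0.22. The granulosa and cumulus markers and the YAP, TAZ and TEAD factors had the lowest medians, and both lists hold few tested genes. With equal FPKM sums per library every list median shown lay below 0, from -0.37 (granulosa and cumulus markers) to -0.05 (cell death and p53), as the median of all genes moved to -0.13.

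The most abundant transcripts of the oocyte kept their levels within each number. The 20 genes with the highest mean FPKM included Mir762, and the other 19 were all within 1.5-fold between genotypes in both numbers, with differences over all libraries of -0.25 to 0.09. Zbed3, a zinc finger gene also found in the subcortical complex, was at 2572 and 3065 FPKM in the YAP-null against 2403 and 3140 FPKM in the wild-type oocytes. Between the numbers, 11 of the 19 were at least 2-fold apart in both genotypes. Ldhb, lactate dehydrogenase B, was at 115 and 3177 FPKM in the YAP-null against 133 and 3307 FPKM in the wild-type oocytes. Padi6, another subcortical complex gene, was at 191 and 1944 against 225 and 2039 FPKM. In both genes library 2 was high and library 1 low whatever the genotype. Obox2, an oocyte homeobox gene, had the opposite order, at 2454 and 605 against 2086 and 629 FPKM. What the number stands for is not given in the labels, so a batch cannot be named.

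**Figure D5:**
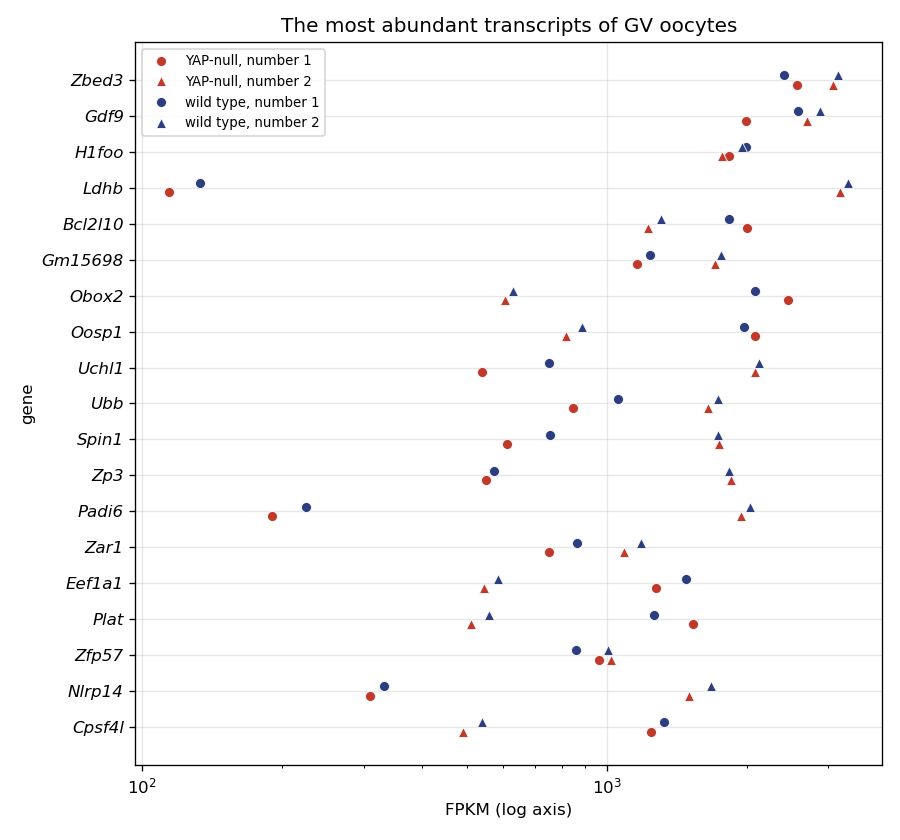
FPKM on a log axis of the 19 most abundant transcripts other than Mir762 in each of the 4 libraries (red, YAP-null; blue, wild type; circles, number 1; triangles, number 2). Points of the same shape lie together, and for genes such as Ldhb, Padi6 and Obox2 circles and triangles lie far apart.

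In the plot of abundant transcripts the points pair by number rather than by genotype. Across all tested genes the correlation of log2(FPKM + 1), given as a description across genes that are not independent, was 0.980 within number 1 and 0.982 within number 2. It was 0.871 between the YAP-null libraries and 0.888 between the wild-type libraries.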

How the data were processed

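For every library the authors deposited gene-level FPKM with a low and a high bound, per the file headers. The submitters' processing notes name CASAVA 1.8, TopHat and the genome build mm9. How FPKM were estimated, from which annotation and with what sharing of reads between copies is not given in the sources used. No read counts were used, so depth is known only relatively, from genes whose bounds had equal relative width within 1%.

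FPKM of the 260 symbols listed on several lines were summed, and the 175 symbols with low-data status were kept. Differences of log2(FPKM + 1) were tested with limma 3.58.1 (limma-trend, R 4.3.3, two-sided, no replicate block) at a Benjamini-Hochberg adjusted p of 0.05 over genes averaging 1 FPKM or more. All libraries were compared as deposited, with 0 columns of other series. Gene lists were described by counts and medians and not tested.

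Named genes were Yap1, those 2-fold apart on the same side in both numbers, the 15 with the smallest unadjusted p, those passing with a replicate block, the 20 most abundant, and per list the 4 most abundant and up to 3 largest separated differences. Other genes named (neighbours of Yap1, copies, list members outside this rule and genes near the threshold) were chosen after their values were seen. The genes and lists were chosen with earlier results of these data known. Alternatives changed the pseudocount, the filter, the scaling, the trend and the block, and left out each library. Sequences are from RefSeq on GRCm38.p6 and GENCODE M21, and positions in mm9 were not converted between builds.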

Additional observations from a re-analysis of the deposited data

How the results depend on the processing

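The count of genes passing in limma was 0 with a pseudocount of 0.1 or 5 FPKM, without a filter, with a mean of at least 5 FPKM, with any of 3 rescalings and without the trend. The counts at an unadjusted p under 0.05 ran from 2 (of 7275 genes, at 5 FPKM) to 208 (of 16148 genes, without a filter). With the replicate number as a block in limma 2 genes passed, Yap1 (log2 difference -4.10, adjusted p 7.65e-05) and Stk32a (2.83, adjusted p 0.0132). In that fit 423 genes had an unadjusted p under 0.05. Same-numbered libraries deviated together from their group means (r = 0.849 across genes). With 2 libraries per genotype this is a single value, since the deviations in number 2 mirror those in number 1. With 2 pairs and no label the numbers are not shown to pair animals or days. Leaving out a library gave 2 to 6 genes and a Yap1 difference of -4.45 to -3.76. The 20 genes 2-fold apart in both numbers became 66 with a pseudocount of 0.1 FPKM (20 higher, 46 lower), 4 with a pseudocount of 5 FPKM (A930015D03Rik, Rnaset2a, Stk32a and Yap1) and 4 with a mean of at least 5 FPKM (A930015D03Rik, Defb41, Rnaset2a and Yap1). Rescaling each library to the same sum of FPKM, which Mir762 enters, moved the median of all genes to -0.13 and gave 26 such genes, 3 higher and 23 lower, of which 17 were shared with the 20. Of the list medians under all alternatives, 143 moved by less than the spread between the list's own medians in number 1 and number 2, and 110 by more. Quantile normalisation gave 8 higher and 12 lower, 18 of them shared. The cause of these shifts was not tested. Under these alternatives 0 of the named genes called by a difference changed sign. Since these genes were picked for their differences in the same values, the kept sign is no further result. Depth limits genes of a few FPKM most, above all in the libraries at 0.314 to 0.401 of the deepest.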

Other observations

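Lineage factors of the later embryo were stored unevenly in GV oocytes. Of 22 pluripotency and early lineage genes, 9 were tested, 5 above and 4 below 0, 0 passed in limma, and all 9 were within 1.5-fold in both numbers. Pou5f1, which encodes OCT4, was at 283 and 161 FPKM in the YAP-null against 298 and 161 FPKM in the wild-type oocytes. Klf17, a Krüppel-like factor gene, was at 322 and 148 against 303 and 155 FPKM. In both genes the genotypes overlapped and library 1 was higher than library 2. Nanog reached at most 0.215 FPKM and Cdx2, the trophectoderm factor, at most 0.259 FPKM in any library. Lin28a, an RNA-binding regulator of let-7, was at 22.7 and 23.4 against 18.6 and 21.3 FPKM, and Gata3 at 4.29 and 4.97 against 4.15 and 3.78 FPKM. These were the 2 separated genes of the list, both higher in YAP-null oocytes, beside 10.8% of all tested genes separated and 5.1% separated with YAP-null higher.

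Of 23 tested stress genes, 11 were above and 12 below 0, and 0 passed in limma. The chaperone gene Hsp90aa1 was at 300 and 870 FPKM in the YAP-null against 238 and 842 FPKM in the wild-type oocytes. Nqo1, a quinone reductase gene, was at 1.65 and 2.40 against 3.56 and 4.15 FPKM, and Gpx1, glutathione peroxidase 1, at 2.97 and 7.27 against 8.66 and 7.79 FPKM, both lower in both YAP-null libraries. Of 73 tested mitochondrial ribosomal protein genes, 33 were above and 40 below 0, with a median of -0.01. By position, the 20 genes 2-fold apart in both numbers held 4 genes on chromosome 17 (20% of them, beside 5.04% of tested genes). The same 20 held 3 genes on chromosome 18 (15%, beside 2.56%). These counts were made after the values were seen and were not tested. The 4 genes on chromosome 17 were A930015D03Rik, Cdc5l, Dynlt1c and Rnaset2a, which all share sequence with other genes, as described above. Of the 19 genes matched to transcripts, only these 4 were found to share 20% or more of their sequence words with another gene. The share of all tested genes that do so is not given here, so the count only describes these genes. Whether shared sequence has a part in the share on chromosome 17 was not tested.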
